A study of Mus musculus with 6 samples.

Results

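Tetrahydrobiopterin (BH4) is the pterin cofactor that aromatic amino acid hydroxylases and nitric oxide synthases need, and 7 mouse genes of its synthesis, recycling and feedback control were followed here among the 17920 genes of the deposited table. The genes were Gch1, Pts and Spr for synthesis, Pcbd1, Pcbd2 and Qdpr for recycling, and Gchfr for feedback. They were chosen by name. Spr was the starting point because its counts had been seen to be higher after Ybx1 knockdown, so its difference between the groups is given as a description with no test, and the question put to the data was whether the other 6 genes moved with it.

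The sample titles name mouse cortex at E13.5 (E gives the embryonic day), and the study's methods describe the knockdown RNA as coming from cultured cortical cells infected with lentivirus. There were 3 control libraries, labelled WT and carried in the data columns as Ctrl, and 3 libraries labelled KD, for which the methods name short hairpin RNA against Ybx1. The methods describe puromycin selection of the infected cells, and the labels do not say which hairpin was used or how many embryos gave each culture. A control hairpin is also listed in the methods, and the labels do not say whether the WT libraries carried it. The study's results call the cells of the knockdown experiment neural stem cells grown in culture. Ybx1 encodes a Y-box protein that binds RNA and DNA.

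In cells, GTP cyclohydrolase (Gch1) opens the ring of GTP and is usually the rate-limiting enzyme of the pathway. Pyruvoyl tetrahydropterin synthase (Pts) makes the next intermediate, and sepiapterin reductase (Spr) carries out the last reductions to BH4. After each hydroxylation the spent cofactor is dehydrated by pterin carbinolamine dehydratase (Pcbd1, with its paralogue Pcbd2) and reduced back by dihydropteridine reductase (Qdpr), while Gchfr is the small regulatory protein through which BH4 and phenylalanine act on GTP cyclohydrolase. In brain, BH4 is best known for the synthesis of dopamine and serotonin.

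Spr was 2.67-fold higher in KD than in WT, and none of the 5 other genes of the pathway that could be tested passed the threshold as higher. Of these 5, 0 passed an adjusted p of 0.05 as higher and 0 as lower in edgeR's quasi-likelihood test, whereas 24.0% of the 13669 genes tested passed it, 1646 as higher and 1631 as lower. At an unadjusted p under 0.05 there was 1 of the 5, Pcbd1, a gene of very low count that passed the filter only through its WT libraries, so its p is given but supports no fall. DESeq2 called 0 of the 3 genes for which it gave an adjusted p, limma-voom called 0 of the 5, and a blocked fit, which pairs libraries by their replicate number, called 0 of the 5 against 36.6% of all genes.

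The libraries held 16294635 to 16497505 estimated counts each, so that 3 counts, taken as the floor, were 0.182 to 0.184 CPM (counts scaled to the library's size) by these totals. All other CPM values also carry TMM scaling, by which 3 counts in WT replicate 3 were 0.187 CPM. Ybx1, the targeted gene, fell from 629 ± 21.0 to 116 ± 36.8 CPM (SD, n = 3 per group), and every KD library was below every WT library. WT replicate 2 and KD replicate 2 held 14 and 36 counts over 4 Y-linked genes, against 1218 to 1899 in the other 4 libraries. Markers of intermediate progenitors were higher in KD, with a summed level of 61.4 to 74.7 CPM in WT and 130 to 163 CPM in KD and 4 of 4 tested markers past the threshold, while Neurog1 was near 0. Single markers passed as higher in KD for radial glia (2 of 7 tested, Pax6 and Hes1), neurons (1 of 6, Dcx), GABAergic cells (1 of 5, Dlx2) and mesenchymal cells (1 of 3, Pdgfrb). The median log2 fold changes of these lists were 0.21, 0.04, 0.07 and -0.32 in that order. Col1a1 (-0.60) and Dcn (-0.32) among mesenchymal markers, and Gad1 (-0.25) and Lhx6 (-0.08) among GABAergic ones, were negative without passing. Dlx1 (0.35) and Gad2 (0.07) were positive without passing. The oligodendrocyte lineage had 2 of 5 lower (Olig1 and Cspg4). All of these calls stand beside 24.0% of all genes tested. Astrocyte markers gave 0 calls of 3 tested, with 0 at an unadjusted p under 0.05 and 0 in DESeq2 and limma-voom. With libraries blocked by number, 4 of 7 radial glia, 2 of 6 neuron, 3 of 5 GABAergic and 4 of 5 oligodendrocyte lineage markers passed. These are counts in either direction, beside 36.6% of all genes called with the block. Microglial markers summed to at most 1.81 CPM, erythroid markers to at most 0.283 CPM and endothelial markers to at most 2.97 CPM, with Cdh5, Cldn5 and Tek at or near 0. The part of these markers in the results for the pathway was not tested, and in bulk RNA fewer cells of a type cannot be told apart from less RNA per cell.

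The promoters of the 3 well-counted enzymes are shown first, so that the starts of the gene that rose and of its neighbours in the pathway can be set side by side. Each line is the 250 bases before the start that the RefSeq promoter table uses (GRCm38.p6), written 5′ to 3′ on the gene's own strand. For Pts that start lies inside the span RefSeq gives the gene, so 60 of the 250 bases belong to the span, and for Pcbd2 all 250 do. For the other 5 genes the window lies outside the span. Capitals mark GGGCGG (the GC box read by Sp-family factors) and CCAAT (the core of the Y box after which Ybx1's family is named), each on either strand, so that CCGCCC and ATTGG are the same letters on the other strand. Spr lies at chr6:85137765-85138014, Pts at chr9:50528657-50528906 and Qdpr at chr5:45450230-45450479, all on the minus strand.
Spr: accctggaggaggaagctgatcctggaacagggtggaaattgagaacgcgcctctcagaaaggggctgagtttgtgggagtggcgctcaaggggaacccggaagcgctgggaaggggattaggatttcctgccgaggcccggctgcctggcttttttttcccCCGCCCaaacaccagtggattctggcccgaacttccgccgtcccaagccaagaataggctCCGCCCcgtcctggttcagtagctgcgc
Pts: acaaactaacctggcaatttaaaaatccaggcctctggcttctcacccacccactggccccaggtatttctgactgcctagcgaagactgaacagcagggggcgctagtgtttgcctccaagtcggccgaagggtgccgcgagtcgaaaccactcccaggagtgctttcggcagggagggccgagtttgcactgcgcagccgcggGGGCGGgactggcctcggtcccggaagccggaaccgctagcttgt
Qdpr: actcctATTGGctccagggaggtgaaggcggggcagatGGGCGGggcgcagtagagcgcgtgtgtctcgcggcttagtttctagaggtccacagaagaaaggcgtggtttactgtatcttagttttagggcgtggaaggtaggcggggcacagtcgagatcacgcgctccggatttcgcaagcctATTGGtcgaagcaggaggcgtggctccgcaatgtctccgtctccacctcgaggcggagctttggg
The Spr window held 2 GC boxes, starting 88 and 28 bases before the start, and 0 CCAAT. The Pts window held 1 GC box, 45 bases before that start and so within the gene's span, and 0 CCAAT. The Qdpr window held 1 GC box, 212 bases before the start, and 2 CCAAT, at 244 and 65 bases.

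Over all 7 genes, a GC box was found in 5 windows and CCAAT in 3, the windows of Gch1, Qdpr and Gchfr. Among 32851 mouse promoter windows of the same length, 32.7% held GGGCGG and 33.8% held CCAAT. The E-box letters CANNTG were in 2 of the 7 windows (Pcbd2 and Qdpr) and in 66.2% of all windows, and TATAAA was in 2 of the 7 (Gch1 and Pcbd1) and in 12.4% of all windows. These are matches of letters in a window. The motifs were searched on both strands, and the CANNTG match of Qdpr, 217 bases before the start, shares its last base with the GC box at 212.

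Gch1 (Entrez Gene 14528; chr14:47153895-47189413, minus strand, GRCm38.p6), the entry enzyme, was close to the floor in both groups. It had 15, 10 and 4 counts in WT replicates 1 to 3 and 13, 7 and 5 counts in KD replicates 1 to 3. Replicate 1 was the highest and replicate 3 the lowest library in each group, and the groups overlapped throughout. The WT mean was 0.592 ± 0.331 CPM and the KD mean 0.504 ± 0.248 CPM (SD, n = 3 each). On the log2 scale the difference was -0.23 with an SE of 0.53, a 95% interval of -1.43 to 0.96 and an adjusted p of 0.782. The interval of the ratio, 0.372 to 1.95, was wide at this depth. In TPM, a unit that also divides by transcript length, Gch1 lay at the 1.5th percentile of the genes tested.

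Gchfr (Entrez Gene 320415; chr2:119167788-119172389, plus strand), the feedback regulator, had 0 counts in 5 libraries and 1 count in KD replicate 1. It did not pass the filter on low counts and was not tested. With 0 counts, a level of up to 0.187 CPM per library is allowed, a limit that covers counting error only. The ratio of Gch1 to its regulator could therefore not be computed.

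Pts (Entrez Gene 19286; chr9:50521617-50528716, minus strand), the middle enzyme, was well counted, and its levels in the 2 groups lay close together. The WT libraries had 408, 405 and 379 counts, the KD libraries 447, 424 and 410. The lowest KD library lay just above the highest WT library in counts, and in scaled CPM KD replicate 3 fell below WT replicate 2. In TPM the groups did not overlap, at 54.49 to 56.49 in WT and 58.29 to 63.45 in KD. There limma-trend on log2(TPM + 1) gave an adjusted p of 0.112. The share of all genes whose groups did not overlap in TPM was not computed. The median log2 fold change over all genes tested was 0.046 on log2(TPM + 1), beside -0.001 in edgeR. The separation in TPM is therefore not read as particular to Pts. WT averaged 24.5 ± 0.747 CPM and KD 25.9 ± 1.01 CPM, which is 0.08 ± 0.07 (SE) on the log2 scale, with an adjusted p of 0.418. The 95% interval of the ratio was 0.952 to 1.18, and KD was above WT in 3 of 3 pairs of libraries with the same number.

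Spr (Entrez Gene 20751; chr6:85133680-85137764, minus strand), the last enzyme, had 96, 112 and 89 counts in the WT libraries and 252, 268 and 287 in the KD libraries. Scaled, the WT libraries stood at 5.83, 6.91 and 5.54 CPM and the KD libraries at 15.1, 16.4 and 17.4 CPM. The lowest KD library was well above the highest WT library. The means were 6.09 ± 0.723 and 16.3 ± 1.12 CPM (SD, n = 3 each), a log2 fold change of 1.42. By that value, for which it was chosen, Spr was 18th of the 13669 genes when ranked from the most raised. Against the library of the same number, KD was 2.60-, 2.37- and 3.14-fold higher in replicates 1, 2 and 3. In TPM, Spr went from 13.0 ± 1.38 to 36.1 ± 2.15. Leaving out any 1 library kept the log2 fold change between 1.36 and 1.52.

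Read assignment could be checked from the transcripts. Of the 50-base windows in Spr transcripts, 2.4% also occurred in another gene, nearly all of them in the neighbouring pseudogene Spr-ps1, and the estimated counts of Spr were whole numbers in every library. For Gch1, Pts, Pcbd1, Pcbd2 and Gchfr the share was 0.0%. Of the Qdpr windows, 12% were shared with the antisense gene Gm42413, and the sources do not say whether strand was used in counting, so part of the Qdpr counts could belong to it.

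**Figure D1:**
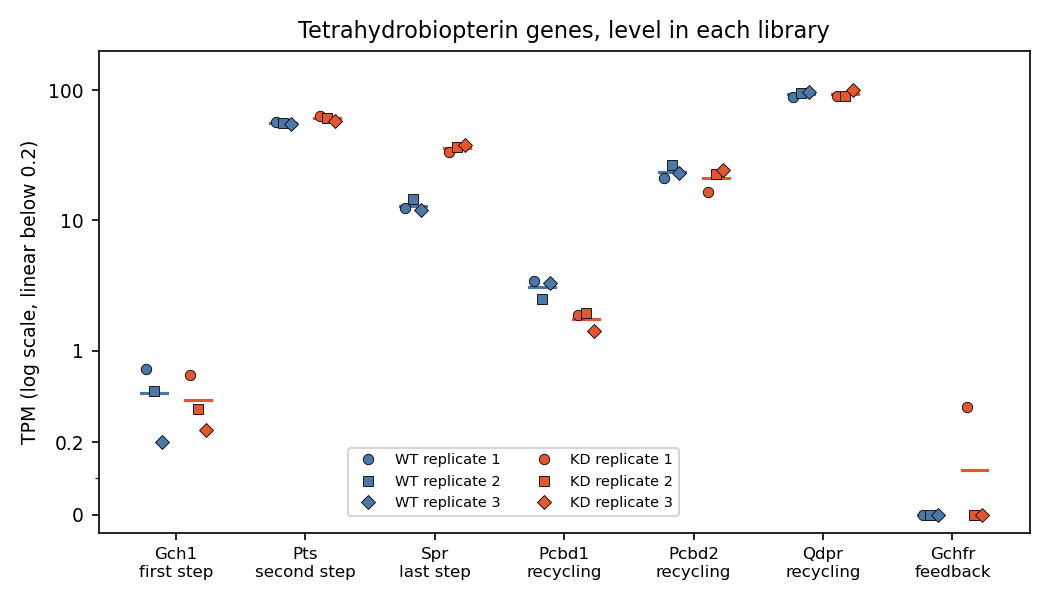
Level of the 7 tetrahydrobiopterin genes in each library in TPM, on a log scale that is linear below 0.2, with blue for WT, orange for KD, a marker shape for each replicate number and a line for each group mean. Spr stood at 11.99 to 14.55 TPM in WT and at 33.7 to 37.9 TPM in KD. Pts was slightly higher in each KD library (58.29 to 63.45 TPM) than in any WT library (54.49 to 56.49 TPM), and the share of all genes so separated in TPM was not computed. Qdpr stayed near its WT level, Pcbd1 was lower in each KD library and Gch1 and Gchfr lay at the bottom of the scale.

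Pcbd1 (Entrez Gene 13180; chr10:61089331-61094329, plus strand), whose product is the dehydratase of the recycling arm and also a dimerization cofactor of hepatocyte nuclear factors, was the one other gene whose groups did not overlap in CPM. In TPM those of Pts did not overlap either. The WT libraries had 15, 11 and 14 counts, the KD libraries 8, 8 and 6. All 3 KD libraries were below all 3 WT libraries, a separation that 41.6% of all genes tested showed in CPM in one direction or the other. WT averaged 0.820 ± 0.124 CPM and KD 0.444 ± 0.0699 CPM, a difference of -0.87 ± 0.33 in log2 (SE; 95% interval -1.62 to -0.13; unadjusted p = 0.026, adjusted p = 0.0847 in edgeR). The gene passed the filter on low counts only through its WT libraries, where it is high, so neither these p-values nor its call by limma-trend on TPM (adjusted p = 0.0182 on log2(TPM + 1)) is support for a fall.

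Pcbd2 (Entrez Gene 72562; chr13:55727097-55776830, plus strand), the paralogue, was more abundant than Pcbd1 per length. The WT libraries had 50, 63 and 52 counts and the KD libraries 40, 48 and 55, and the groups overlapped. WT averaged 3.39 ± 0.446 CPM and KD 2.89 ± 0.466 CPM, a difference of -0.23 ± 0.19 in log2 (SE; 95% interval -0.65 to 0.20; adjusted p = 0.408). Pcbd1 was 13.4 ± 3.47% of Pcbd2 in TPM in WT and 8.62 ± 2.84% in KD, and these shares overlapped between the groups but were lower in KD in each of the 3 pairs with the same number.

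Qdpr (Entrez Gene 110391; chr5:45434032-45450229, minus strand), which regenerates BH4, was the most abundant gene of the pathway. The WT libraries had 813, 864 and 844 counts, the KD libraries 788, 778 and 889. The highest and the lowest of the 6 libraries were both KD libraries. WT averaged 51.7 ± 2.11 CPM and KD 49.6 ± 3.73 CPM, which is -0.06 ± 0.07 (SE) on the log2 scale, with an adjusted p of 0.544. The 95% interval of the ratio was 0.862 to 1.07, and KD was above WT in 1 of 3 pairs.

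Taken over the 5 tested genes other than Spr, 1 had a positive and 4 had a negative log2 fold change, with a median of -0.23, beside a median of -0.001 and quartiles of -0.17 and 0.16 over all genes tested. Gch1, Pcbd1 and Pcbd2 were each counted in at most 63 reads per library, so this median rests mostly on genes of low count. It also includes Pcbd1 (-0.87), which passed the filter only through its WT libraries, so the signs and the median support no fall. The rest were Pts (0.08), Qdpr (-0.06), Pcbd2 (-0.23) and Gch1 (-0.23).

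**Figure D2:**
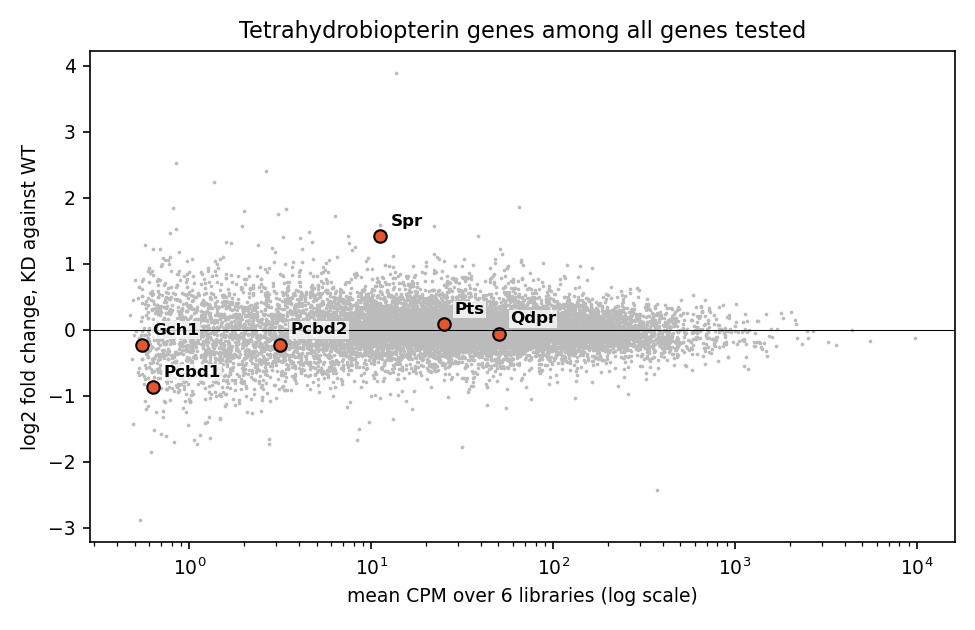
Log2 fold change of KD against WT (vertical axis) against the mean CPM over the 6 libraries (log scale) for the 13669 genes tested in grey, with the 6 tested tetrahydrobiopterin genes as labelled orange points. Spr stands near the upper edge of genes of its abundance at 1.42, Pts (0.08) and Qdpr (-0.06) lie in the middle of the cloud, and Gch1 and Pcbd1 lie at its low-count end.

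The order of levels within the pathway shifted at a single place. In WT the TPM means ran from Qdpr (93.5) through Pts (55.7), Pcbd2 (23.5), Spr (13.0), Pcbd1 (3.09) and Gch1 (0.473) to Gchfr (0), and no neighbours in that order overlapped across libraries. In KD the order was Qdpr (92.9), Pts (61.0), Spr (36.1), Pcbd2 (21.1), Pcbd1 (1.75), Gch1 (0.420) and Gchfr (0.123). Spr and Pcbd2 had changed places, and Gch1 and Gchfr were the only neighbours whose libraries overlapped. The change of place carries the rise for which Spr was chosen and is given as a description.

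Ratios of genes within a library do not depend on how libraries are scaled. Spr was 22.0, 25.9 and 22.0% of Pts in TPM in the WT libraries and 53.2, 59.9 and 65.1% in the KD libraries. Spr relative to Qdpr was 13.9 ± 1.42% in WT and 38.9 ± 1.59% in KD. Both shares carry the rise for which Spr was chosen and are given without a test. Pts relative to Qdpr, which does not include Spr, was 59.7 ± 3.49% in WT and 65.8 ± 6.43% in KD. The groups overlapped, and KD was above WT in 3 of 3 pairs with the same number. Gch1 was 0.844 ± 0.463% of Pts in WT and 0.681 ± 0.308% in KD, with overlap and with KD above WT in 1 of 3 pairs.

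The enzymes that use BH4 were mostly at or near the floor in these cells. Nos1, the neuronal nitric oxide synthase, was the exception among the 7 genes listed here and was higher in KD. The WT libraries had 31.1, 35.5 and 51.5 CPM, the KD libraries 50.3, 59.2 and 64.0 CPM. WT replicate 3 lay above KD replicate 1, but each KD library was above the WT library of its own number. The log2 fold change was 0.55 ± 0.17 (SE; adjusted p = 0.0421, edgeR), and the call was lost without WT replicate 1 (adjusted p = 0.0921), WT replicate 2 (0.142), KD replicate 2 (0.115) or KD replicate 3 (0.113). It was kept with the replicate block (adjusted p = 6.33e-05), in DESeq2 (0.00261) and in limma-voom (0.033).

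Th, the tyrosine hydroxylase of dopamine synthesis, was the other gene of this list that was tested, with WT at 0.656 ± 0.137 CPM and KD at 0.847 ± 0.272 CPM (log2 fold change 0.37 ± 0.35, SE; adjusted p = 0.483). The tryptophan hydroxylases of serotonin synthesis had means of 0.287 and 0.324 CPM (Tph1) and 0.164 and 0.0811 CPM (Tph2) in WT and KD, and endothelial nitric oxide synthase (Nos3) had 0.493 and 0.306 CPM. Inducible nitric oxide synthase (Nos2) and the ether lipid enzyme Agmo had at most 3 counts in every library. None of these 5 passed the filter on low counts.

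The carbonyl reductases that can reduce pterin intermediates in place of sepiapterin reductase did not pass the threshold. All 3 of them were tested, and edgeR called 0, beside 24.0% of all genes tested. There were 0 at an unadjusted p under 0.05 and 0 in DESeq2 and limma-voom. For Cbr1, WT averaged 46.0 ± 2.19 CPM and KD 44.9 ± 2.23 CPM, a log2 difference of -0.03 (95% interval -0.18 to 0.11; adjusted p = 0.721). For the aldose reductase Akr1b3 the difference was -0.02 (-0.16 to 0.11; adjusted p = 0.813) and for Cbr3, which was low at 2.28 ± 0.407 and 1.76 ± 0.116 CPM, it was -0.37 (-0.85 to 0.10; adjusted p = 0.224). The groups overlapped for each of the 3.

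The supply of GTP, the starting compound, was read from 13 genes, all tested, of which 1 was higher, 3 were lower and 9 did not pass (median log2 fold change 0.04). These 4 of 13 stand beside 24.0% of all genes tested, so the count is not read as particular to the list. The nucleoside diphosphate kinases went in opposite directions. Nme1 rose from 85.3 ± 9.87 to 146 ± 8.44 CPM (log2 fold change 0.78, adjusted p = 7.55e-04), whereas Nme2 fell from 146 ± 7.24 to 114 ± 15.6 CPM (-0.36, adjusted p = 0.0237). Impdh2, which commits inosine monophosphate to guanine nucleotides, fell from 77.8 ± 1.90 to 62.3 ± 1.27 CPM (-0.32, adjusted p = 0.00292), and the guanylate kinase Guk1 fell from 57.6 ± 3.87 to 48.8 ± 3.23 CPM (-0.24, adjusted p = 0.0391). The call of Nme2 was lost without WT replicate 2 (adjusted p = 0.0866), WT replicate 3 (0.0533) or KD replicate 2 (0.0672), and that of Guk1 without replicate 1 or 2 of WT (0.0962 and 0.136) or of KD (0.111 and 0.133), with total count scaling (0.054) and on TPM (0.0507 and 0.051). On TPM Paics, named after its values were seen, passed as higher (0.0394 and 0.0409), so the list then had 2 higher and 2 lower.

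The folate cycle, whose carriers are pterins too, had 16 of 17 genes tested, with 1 higher and 1 lower (median log2 fold change 0.10). Over all genes tested 24.0% were called, so these counts are not read as particular to the list. Mthfd1, the trifunctional folate enzyme, rose from 39.3 ± 1.52 to 51.1 ± 2.72 CPM (0.38, adjusted p = 0.00384). The folate carrier Slc19a1 fell from 16.1 ± 0.178 to 13.0 ± 0.477 CPM (-0.31, adjusted p = 0.0311), a call that was lost whichever library was left out (adjusted p of 0.0535 to 0.0979), in DESeq2 (0.0931) and on TPM (0.0574 and 0.0553). With libraries blocked by number 4 of the 16 tested genes passed, beside 36.6% of all genes with the block. Those added were Tyms and Shmt2, named here after their values were seen. Molybdenum cofactor synthesis, the other pterin pathway that starts from GTP, had 0 calls among 4 tested genes in edgeR, 0 at an unadjusted p under 0.05, 0 in DESeq2 and limma-voom, and 1 on TPM (Mocs2, higher). The handling of monoamines had 0 calls among 5 tested of 9 listed in edgeR, 1 at an unadjusted p under 0.05 and 0 in DESeq2 and limma-voom, and the block called 1, Slc18a2, as higher.

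**Figure D3:**
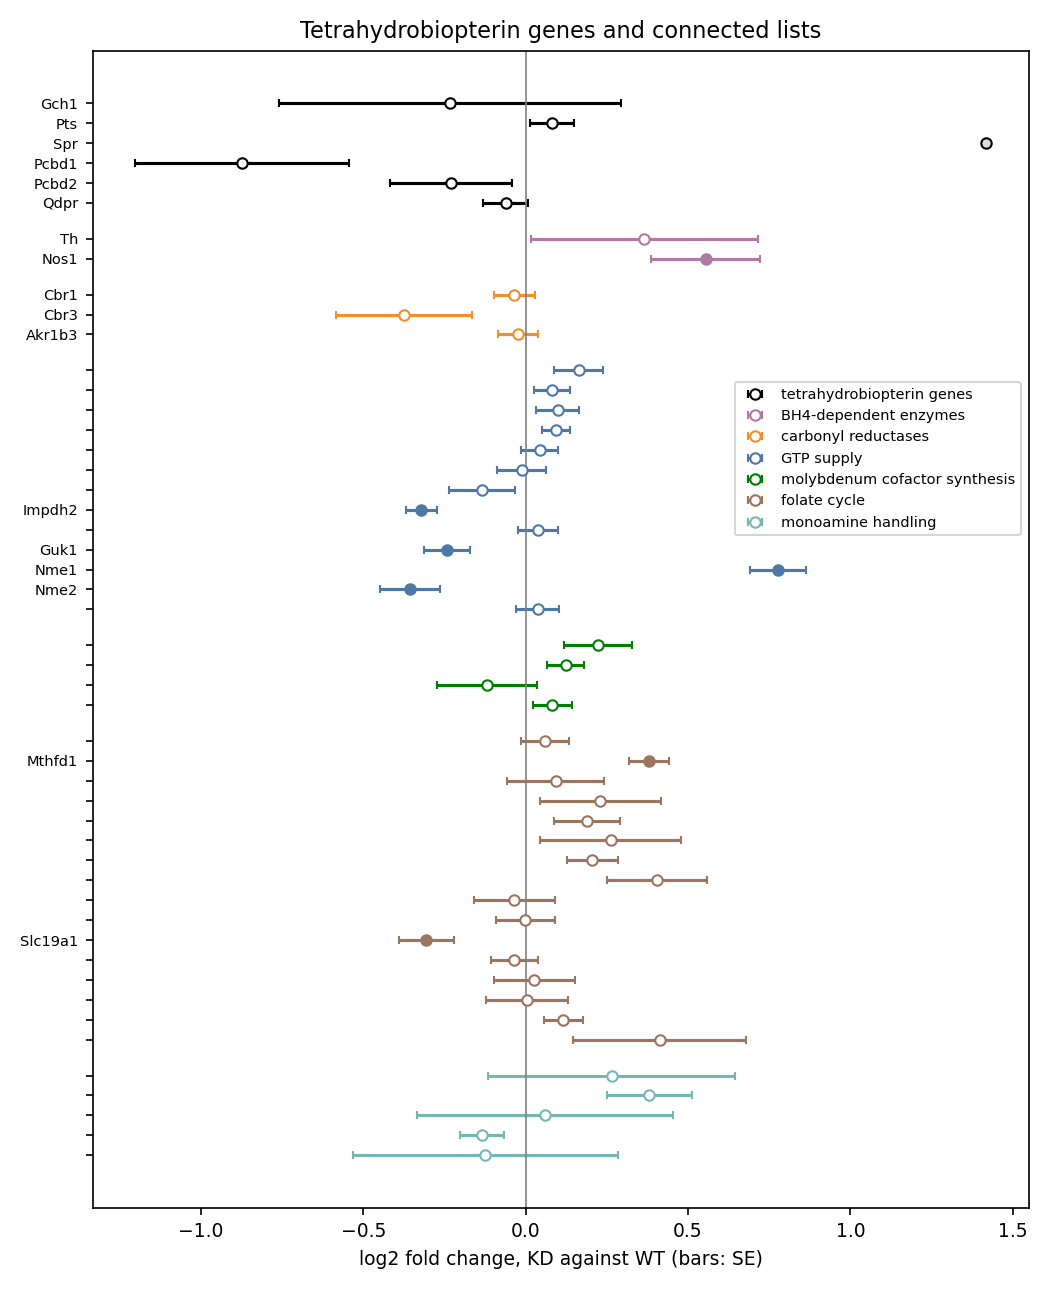
Log2 fold change of KD against WT with its SE (horizontal bars, none for Spr) for the 6 tetrahydrobiopterin genes with a fitted value in black and for the tested genes of the connected lists, coloured by list, with names for the first 3 groups and for genes past the threshold. Filled points passed an adjusted p of 0.05, open points did not, and the grey-filled Spr was not put to the test. Spr at 1.42, the value for which it was chosen, lies to the right of every other gene drawn, followed by Nme1 (0.78) and Nos1 (0.55).

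Among genes with a mean of at least 5 CPM, those whose levels over the 6 libraries were most like those of Spr lay outside the pathway. Likeness was the root mean square difference of log2 CPM, each gene centred on its own mean, over 6 libraries and 11438 genes with a mean of at least 5 CPM. The nearest were the somatostatin receptor Sstr2 (0.178), the calponin Cnn2 (0.191), the exosome subunit Exosc9 (0.202), the histone gene H2bc4 (0.231) and the mitochondrial citrate carrier Slc25a1 (0.253). Exosc9 and H2bc4 had fractional estimated counts in 6 and 4 libraries, so their levels are less certain. Cnn2 averaged 4.14 CPM in WT and 8.87 CPM in KD, and H2bc4 2.92 and 9.66 CPM. Both reached a mean of 5 CPM only through their KD libraries, so their place here depends on that filter. Pts and Qdpr, the only other members that reached 5 CPM, were at 0.682 and 0.749, ranks 3900 and 6805 in likeness. Gch1, Pcbd1, Pcbd2 and Gchfr lay below that level and were not compared. Since the measure reads the difference between the groups, for which Spr was chosen, the nearest genes had to be higher in KD.

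**Figure D4:**
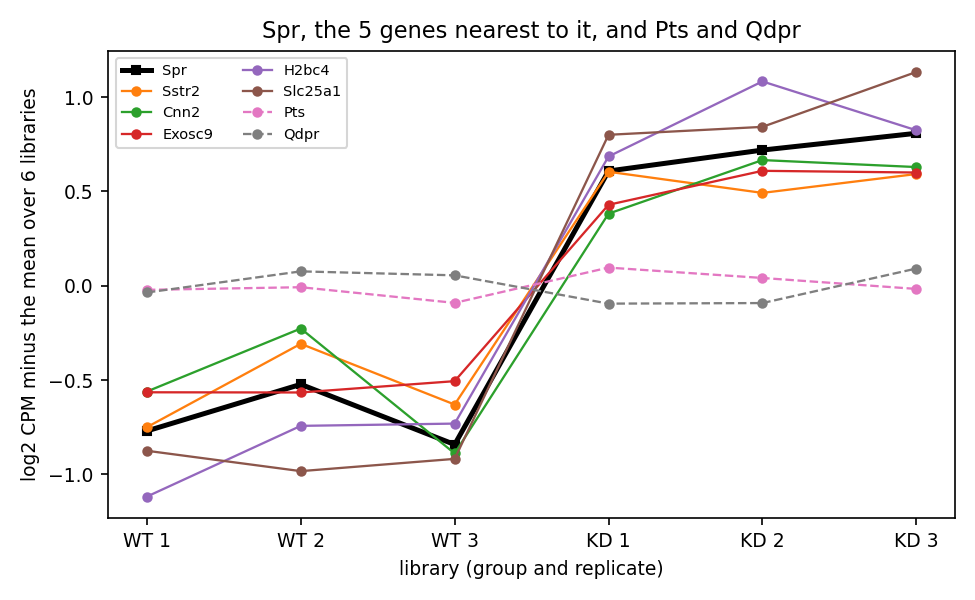
Log2 CPM minus the gene's mean over the 6 libraries, for each library, with Spr as the thick black line, the 5 nearest genes as thin solid lines and Pts and Qdpr as dashed lines. Spr and its nearest genes are below 0 in all WT libraries and above 0 in all KD libraries, whereas Pts and Qdpr stay close to 0 throughout.

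The chromosomal neighbours of Spr, taken as the nearest protein-coding gene of the deposited table on each side, did not pass the threshold. Exoc6b, an exocyst subunit whose gene ends 63.4 kb before Spr on chromosome 6, had 118 ± 5.23 CPM in WT and 118 ± 4.04 CPM in KD (log2 fold change -0.001 ± 0.05, SE; adjusted p = 0.995). Emx1, a transcription factor of the dorsal cortex that starts 50.2 kb after Spr, had 11.8 ± 2.27 and 14.0 ± 2.72 CPM (0.25 ± 0.18, SE; adjusted p = 0.334). The groups overlapped for both.

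Around all 7 genes of the pathway, neighbours taken in the same way lay between 0.111 kb (Dnajc17 from Gchfr) and 634 kb (Ldb2 from Qdpr) away. Of these 14 neighbours 12 were tested, and edgeR called 0 of them higher and 0 lower. There were 3 at an unadjusted p under 0.05, and 24.0% of all genes were called. DESeq2 and limma-voom called 0, TPM values 1 (Dnajc17), upper quartile scaling 1 (Txndc15, adjusted p = 0.0499) and the replicate block 2 (Wdhd1 and Lap3), beside 36.6% of all genes with the block. The neighbours of Gch1 were Samd4 (0.14) and Wdhd1 (0.35) in log2 fold change, those of Pcbd1 were Unc5b (-0.03) and Sgpl1 (-0.12), and those of Qdpr were Ldb2 (0.04) and Lap3 (-0.19). Bco2 (0.46) lay beside Pts, Txndc15 (-0.14) beside Pcbd2, and Rmdn3 (-0.04) and Dnajc17 (0.19) beside Gchfr. Plet1 beside Pts and Catsper3 beside Pcbd2 had at most 3 counts in any library and were not tested.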

How the data were processed

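RNA-seq was done on 6 libraries titled as E13.5 mouse cortex and described in the methods as cultured cortical cells, 3 labelled WT and 3 labelled KD. The authors deposited estimated counts and TPM values per gene. The submitters' processing notes name RSEM 1.3.1, Bowtie2 2.4.5, HISAT2 2.2.1 and GRCm38/mm10, without a role or order. The annotation is not given in the sources used here. Between 89.3% and 89.9% of the counts in a library were whole within 1e-06, and all counts were rounded. A further 12 columns, with FPKM values and group averages, were not used. The design assumed a test of the Gch1 to Gchfr ratio, which could not be computed.

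KD was tested against WT with edgeR 4.0.16 in R 4.3.3 (TMM scaling, filterByExpr with a minimum count of 10, quasi-likelihood F-test, two-sided), with Benjamini-Hochberg adjustment over all 13669 genes tested. SEs and 95% intervals were derived from the log2 fold change and its p. The script was tested on simulated data. DESeq2 1.42.0 and limma 3.58.1, with other scalings, filters and left-out libraries, were alternatives. The members and lists were chosen with earlier results of these data known. Named genes were the 7 members, Ybx1, each listed pathway gene past the threshold with at least 1 CPM (at most 4 per list and direction), every BH4-dependent enzyme, the 5 genes most like Spr and the neighbours of each member. Some genes of the lists are not reported here.

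Libraries with the same replicate number deviated together from their group means (correlations 0.414, 0.366 and 0.226 for numbers 1, 2 and 3, against -0.303 to -0.024 between numbers), so the numbers, which come from the titles and column names, pair the libraries. Each library was centred on the mean of its own group. Positive values within numbers therefore force negative ones between numbers, which are no separate evidence. Replicates differed by 4.57 to 9.05 chi-square units per degree of freedom, and none was a duplicate. The study's methods speak of independent replicate experiments, and the labels tie no library to an animal.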

Additional observations from a re-analysis of the deposited data

How the results depend on the processing

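The number of pathway genes other than Spr that were higher in KD was 0 under each of 17 alternatives, and the number lower was 0 under 15 of them and 1, Pcbd1, on log2(TPM + 1) and on log2(TPM + 0.1), where its log2 fold change was -0.57 (adjusted p = 0.0182) and -0.79 (adjusted p = 0.0215). The gene entered through its WT libraries alone, so this call is no support for a fall, and the cause of the change was not tested. Over its 15 alternatives the log2 fold change of Pcbd1 was -0.99 to -0.57, with adjusted p from 0.0182 to 0.213. DESeq2 gave no adjusted p for Gch1 and Pcbd1. Spr stayed between 1.36 and 1.52, Pts between 0.05 and 0.13, Qdpr between -0.12 and -0.01 and Pcbd2 between -0.34 and -0.11 over 16 alternatives each. Gch1 went from -0.69 to 0.22 when single libraries were left out, turning positive without WT replicate 1 (0.22) or KD replicate 3 (0.03).

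Over all genes tested, 1646 were higher and 1631 lower. The replicate block gave 2539 and 2470 and kept all 3277 earlier calls. An adjusted p of 0.01 gave 629 and 634, and leaving out single libraries gave 779 to 1612 and 797 to 1583, with fewer samples in each fit. On TPM, 1072 genes were lower with a pseudocount of 1 and 1063 with 0.1. The higher genes were 50.2% of the calls, 43.0% with upper quartile scaling, 57.9% with total counts, and 65.9% and 66.1% on TPM. Beside the lists and neighbours named in the report, the block changed no call of a named gene.

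Among the neighbours, Exoc6b at -0.001 changed sign to 0.001 with RLE scaling and with DESeq2, 0.022 with total counts, 0.006 with no filter, 0.051 and 0.052 on TPM, and -0.024 to 0.036 with single libraries left out. On TPM, Unc5b was 0.013 and 0.014 and Rmdn3 was 0.016 with both pseudocounts. With single libraries left out, Unc5b ranged from -0.12 to 0.04, Rmdn3 from -0.083 to 0.013, Bco2 from -0.11 to 0.72 and Ldb2 from -0.17 to 0.30. The Gch1 to Gchfr ratio was not run under any alternative, because Gchfr was at 0 in 5 libraries. Gchfr entered the fit with no filter on low counts, where it rests on 1 count, and no fold change of it is given.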
